A study of Mus musculus with 4 samples.

Results

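Monocytes were described in 4 single-cell RNA libraries of mouse spinal cord from a study of tau transgenic mice. Whether a given cell came from cord tissue, blood or bone marrow was not tested. A cell was taken as a monocyte when it held unique molecular identifiers (UMIs, each counting 1 captured transcript) of at least 3 of the 6 genes Ly6c2, Ccr2, Ms4a4c, Treml4, Plac8 and Lyz2. It also had to lack the T cell genes Cd3e, Cd3d and Cd3g and the B cell genes Cd79a and Cd79b, with S100a8 and S100a9 under 3% and the C1q genes under 0.3% of its UMIs, which set neutrophils and macrophages aside. The rule took 518 of 20454 kept cells, a kept cell being one of 500 or more UMIs from 200 or more genes, no more than 15% of them mitochondrial. Within the 518, cells with a UMI of Treml4 or Ace are described apart from the rest.

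The groups were P301S homozygous mice with normal CD8 (CD8 WT) at 30 weeks and at 33 weeks, P301S homozygous mice labelled CD8 KO at 30 weeks, and P301S negative CD8 WT mice at 30 weeks. P301S is a mutation of the tau protein carried by the transgene, and all groups but the P301S negative one are homozygous for it. Cords of 2 saline-perfused mice were pooled into 1 library per group, so no group has a replicate library, no test between groups was possible, and intervals below are 95% exact intervals that cover counting error only. The promoter of the transgene and the CD8 allele are not given in the sources used here. The 4 groups are called neg, hom at 30 weeks, hom at 33 weeks and CD8 KO, and values of all 4 are given in that order.

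Monocytes are blood phagocytes that arise in the bone marrow from dividing granulocyte and monocyte precursors. Classical monocytes (Ly6c2 and Ccr2 high) leave the marrow through the chemokine receptor CCR2 and can enter inflamed tissue. Non-classical monocytes (Treml4, Ace and Cx3cr1 high) arise from them, need the transcription factor NR4A1 and patrol the vessel wall. Precursors make the granule proteins myeloperoxidase (Mpo), neutrophil elastase (Elane), proteinase 3 (Prtn3) and cathepsin G (Ctsg), which mature monocytes no longer transcribe.

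Cd8a, the gene that the CD8 label names, was at 123, 150, 135 and 15.9 CPM in T cells (CPM being the UMIs of a gene scaled to the summed UMIs of the set of cells). In endothelial cells it had 0 UMIs in the 3 CD8 WT libraries and 1192 UMIs (105 CPM) in the CD8 KO library, so T cell Cd8a went with the label and endothelial Cd8a against it. That library is therefore called the library labelled CD8 KO. Libraries held 36331214 to 43531426 UMIs over 4751 to 5738 kept cells, and pairs of libraries shared 3 to 12 cell barcodes, none of them between monocytes.

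The sequences that matter for the rule are those of Ly6c2 and of its neighbour Ly6c1, since the first marks monocytes and the second marks endothelium. Ly6c2 lies on chromosome 15 at 75108158 to 75111970 and Ly6c1 at 75044018 to 75048830, both on the minus strand (GRCm38), 59328 bases apart. The last 100 bases of their transcripts, the end that a 3′ library reads, were identical at 91 of 93 aligned positions. Their promoters (RefSeq, GRCm38.p6, from 250 bases before to 50 after the first listed start) were identical at 208 of 266 aligned positions, or 78.2%. The granule genes Elane and Prtn3, 3073 bases apart on chromosome 10, and Mpo on chromosome 11 are shown with them because their transcripts occurred in the same cells and mark a group of cells described below. Capitals mark GAGGAAGT, a motif of the kind bound by the ETS factor PU.1 (Spi1), which was searched on both strands and overlapped no other match.
Ly6c2, chr15:75111922-75112221, minus strand: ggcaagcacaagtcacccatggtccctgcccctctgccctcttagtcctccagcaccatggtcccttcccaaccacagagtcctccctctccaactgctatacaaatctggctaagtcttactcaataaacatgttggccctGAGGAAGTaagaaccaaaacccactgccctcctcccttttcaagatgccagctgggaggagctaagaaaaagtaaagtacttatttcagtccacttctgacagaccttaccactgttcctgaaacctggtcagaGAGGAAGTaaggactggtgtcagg
Ly6c1, chr15:75048788-75049087, minus strand: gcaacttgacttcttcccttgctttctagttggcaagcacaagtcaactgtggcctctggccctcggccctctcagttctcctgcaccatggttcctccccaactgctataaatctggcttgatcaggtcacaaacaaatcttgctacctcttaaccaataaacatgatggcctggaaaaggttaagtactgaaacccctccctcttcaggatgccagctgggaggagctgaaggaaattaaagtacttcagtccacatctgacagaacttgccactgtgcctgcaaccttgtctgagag
Elane, chr10:79886062-79886361, plus strand: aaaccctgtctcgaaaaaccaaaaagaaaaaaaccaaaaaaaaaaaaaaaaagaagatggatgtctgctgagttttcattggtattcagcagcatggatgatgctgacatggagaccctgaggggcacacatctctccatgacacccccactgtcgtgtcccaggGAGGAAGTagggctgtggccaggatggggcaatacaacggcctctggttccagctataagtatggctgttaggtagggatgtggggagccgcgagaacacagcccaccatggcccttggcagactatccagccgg
Prtn3, chr10:79879417-79879716, plus strand: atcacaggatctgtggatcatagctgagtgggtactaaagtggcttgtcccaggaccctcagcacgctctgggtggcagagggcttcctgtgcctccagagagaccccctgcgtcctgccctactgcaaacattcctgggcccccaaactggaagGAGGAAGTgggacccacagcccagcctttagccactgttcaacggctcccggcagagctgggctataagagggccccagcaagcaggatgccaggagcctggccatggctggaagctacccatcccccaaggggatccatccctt
Mpo, chr11:87793534-87793833, plus strand: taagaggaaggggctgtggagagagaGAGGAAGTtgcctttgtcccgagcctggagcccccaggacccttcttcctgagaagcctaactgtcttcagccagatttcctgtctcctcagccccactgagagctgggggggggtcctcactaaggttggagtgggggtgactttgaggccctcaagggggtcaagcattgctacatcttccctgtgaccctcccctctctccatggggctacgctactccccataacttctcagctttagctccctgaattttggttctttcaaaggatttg
The motif stood in a window of this length at any listed start of 3.689% of 27025 genes, or in 3.202% of 32851 promoters. Among 7 genes, the 6 of the rule and Ace, only Ly6c2 held it, with 2 copies. Ly6c1 held none in the window shown but 1 in that of its second listed start, so the contrast with Ly6c2 depends on the window. Of 5 granule genes, Elane, Prtn3 and Mpo held it, and Ctsg and Ms4a3 did not.

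Monocytes numbered 177, 117, 163 and 61. They were 3.08% (2.65 to 3.57), 2.46% (2.04 to 2.94), 3.37% (2.88 to 3.92) and 1.19% (0.910 to 1.52) of kept cells. The library labelled CD8 KO had the lowest share, below the intervals of the other 3. Macrophages, mostly microglia in a cord, took a different share of each library. With them left out of the denominator the shares were 3.93%, 4.04%, 4.95% and 2.20%. Neutrophils, erythroid cells and B cells were also fewest in the library labelled CD8 KO, so its low share was not particular to monocytes. Neutrophils numbered 632, 603, 593 and 213, erythroid cells 394, 201, 490 and 116, and B cells 636, 360, 309 and 264. T cells, at 63, 86, 114 and 91, were not fewest there. With B, erythroid cells and neutrophils left out of the denominator, monocyte shares were 4.34%, 3.26%, 4.74% and 1.34%. Just outside the rule, 57, 41, 54 and 29 cells met all limits but had 2 markers, and 48, 10, 21 and 9 members had exactly 3.

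The members of the neg library did not all look like monocytes. There, 48 of 177 (27.1%) had at least 0.1% of their UMIs in the endothelial genes Cldn5, Flt1, Cdh5, Pltp and Itm2a, against 4 of 117, 9 of 163 and 2 of 61 in the others. Of the 48, 18 had a UMI of the leukocyte gene Ptprc and 27 of the monocyte growth factor receptor Csf1r, 25 also carried granule genes, and 18 held both Xist and Y-linked UMIs, which come from a female and a male mouse. A doublet caller marked 1 of the 48. These 63 cells in all are called endothelial-marked. The mark was chosen after the values were seen, and the results below are given without these cells, with the value for all 518 beside those it moves.

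The counts of the neighbouring genes were checked in endothelial cells. Ly6c1, a gene of endothelium, was at 6292, 6040, 6174 and 6219 CPM in endothelial cells outside the rule, and Ly6c2 was at 4.19, 2.67, 5.74 and 2.12 CPM in the same cells. Ly6c2 had a UMI in 56 of 2134 such cells of the neg library but in 45 of its 48 endothelial-marked members, which the rule selects in part through this gene. In the monocytes without the mark, Ly6c2 was at 2178, 1971, 2434 and 1416 CPM, and Ly6c1 at 18.9, 10.2, 4.57 and 6.88 CPM. Since Ly6c2 is a gene of the rule, its level in monocytes is partly set by the choice of cells, while Ly6c1 played no part in it.

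**Figure D1:**
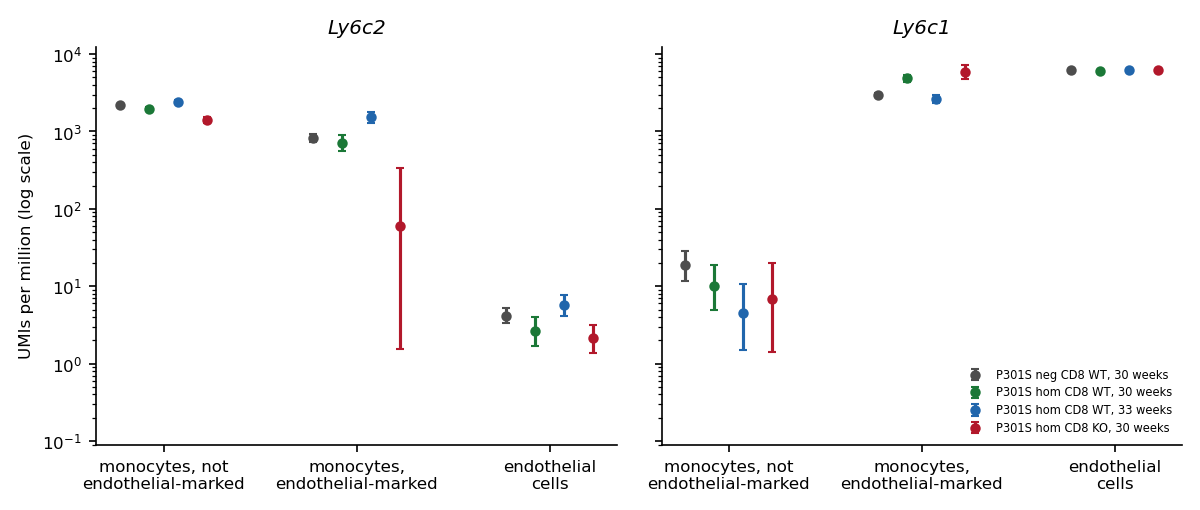
Ly6c2 (left) and Ly6c1 (right) in CPM on a log axis, in monocytes without and with the endothelial mark and in endothelial cells; each point is 1 library with its 95% counting interval. Ly6c2 is at 1416 to 2434 CPM in unmarked monocytes and at 2.12 to 5.74 CPM in endothelial cells, and Ly6c1 shows the opposite.

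Without the endothelial-marked cells there were 129, 113, 154 and 59 monocytes, 2.25%, 2.38%, 3.19% and 1.15% of kept cells. Neg and hom at 30 weeks then lay within each other's interval, and the library labelled CD8 KO remained lowest. Median depth was 7234, 6465, 5331 and 6286 UMIs per cell. Lyz2 (lysozyme) had a UMI in 129 of 129, 113 of 113, 153 of 154 and 58 of 59 cells, Plac8 in 128, 112, 148 and 57, Ccr2 in 109, 100, 132 and 55, and Ms4a4c in 94, 87, 107 and 44. Spi1, the gene of PU.1, was at 469, 447, 420 and 436 CPM, and Csf1r at 269, 226, 222 and 207 CPM. Neither gene is part of the rule, and their levels differed little between libraries.

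Granule and division genes marked further groups of cells. Cells with at least 0.1% of their UMIs in Mpo, Elane, Prtn3 and Ctsg, called granule-marked, numbered 19, 21, 33 and 6. Cells with at least 0.05% in Mki67, Top2a and 4 further division genes, called cycling-marked, numbered 31, 35, 53 and 18. Both marks were on 16, 18, 26 and 5 cells. Granule genes are shared by precursors of monocytes and of granulocytes. Csf1r, the receptor of the monocyte line, had a UMI in 13 of 19, 17 of 21, 23 of 33 and 3 of 6 granule-marked cells. Granule-marked cells were deeper than the monocytes as a whole, at medians of 19495, 15723, 12072 and 14524.5 UMIs. Detection of a gene rises with depth, so these counts alone do not give the line of the cells. These marks are ranges, not types: in the neg library 7 cells lay just under the granule limit and 3 just over it, and for the cycling limit 18 and 17. Intervals of the granule-marked share overlapped across all libraries, at 14.7% (9.11 to 22.04), 18.6% (11.9 to 27.0), 21.4% (15.2 to 28.8) and 10.2% (3.82 to 20.8). Ccr2 was at 177, 319, 257 and 325 CPM in granule-marked cells. In cells with none of the marks (66, 58, 70 and 34 cells, neither granule, cycling, dendritic, plasmacytoid nor Treml4 or Ace) Ccr2 was at 1102, 861, 919 and 956 CPM, higher in each library. Ly6c2 was at 2659, 2689, 3268 and 2273 CPM in granule-marked cells and at 2163, 1583, 2161 and 1284 CPM in those without a mark. Cells that carried dendritic genes (Cd209a, Flt3, Clec10a, Zbtb46, Mgl2 at 0.1% or more) numbered 5, 5, 7 and 5, and those with plasmacytoid dendritic genes (Siglech, Ccr9, Klk1, Cox6a2, Ly6d) 0, 2, 6 and 1; 0 of 129 leaves a share of up to 2.82%.

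**Figure D2:**
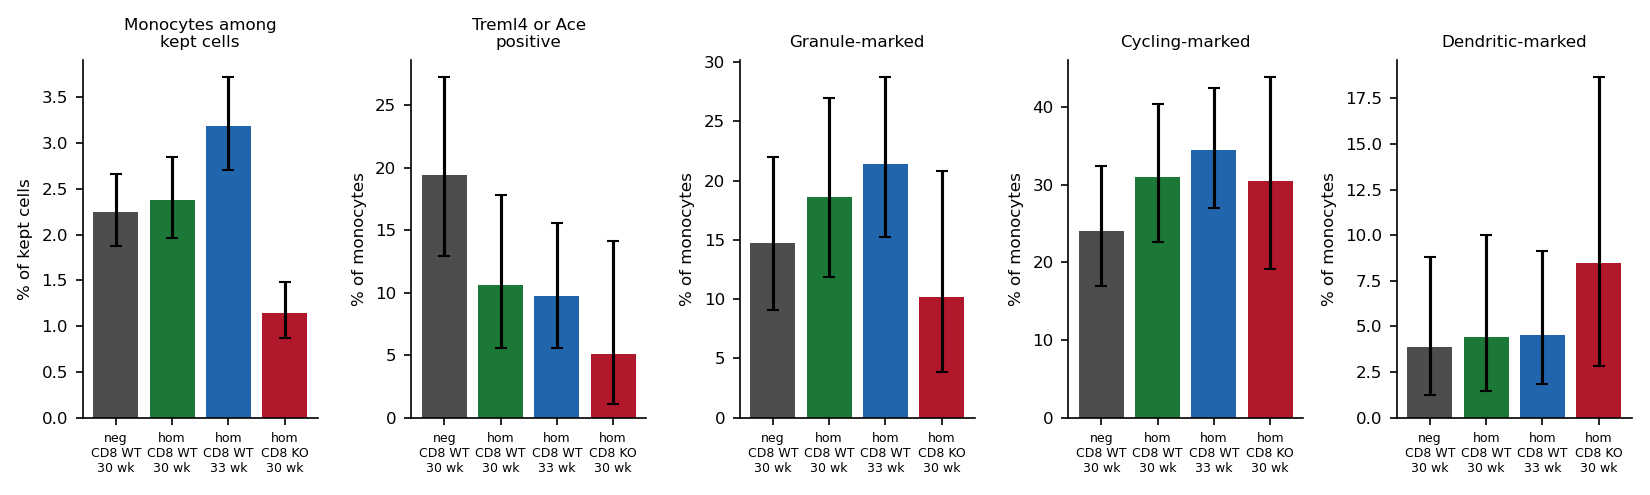
Shares by library with 95% exact binomial intervals as bars on each column, in percent of kept cells (first panel) or of monocytes without the endothelial mark (other panels). Monocytes are 1.15% of kept cells in the library labelled CD8 KO and 2.25% to 3.19% in the others, and the intervals of the monocyte subsets overlap.

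Treml4 or Ace positive cells were 25 of 129 (19.4%, 12.95 to 27.3), 12 of 113 (10.6%, 5.61 to 17.8), 15 of 154 (9.74%, 5.55 to 15.6) and 3 of 59 (5.08%, 1.06 to 14.1). Over all 518 members the counts were 33, 15, 16 and 4. Treml4 encodes a receptor of non-classical monocytes and Ace the angiotensin-converting enzyme, which endothelium also makes. The share was highest in the neg library, with an interval that overlaps those of all other libraries. Thinned to 1000 UMIs per cell it was 7.94%, 6.19%, 4.70% and 1.69% (3, 0, 5 and 0 shallower cells left out), and the order stayed the same with wider overlap. As background, a UMI of either gene was in 6.80%, 4.31%, 4.38% and 0.469% of neutrophils (median depth 2776.5, 2748, 1969 and 1931 UMIs) and in 11.7%, 8.50%, 9.73% and 10.8% of endothelial cells. Neutrophils held fewer UMIs per cell than these monocytes, so their shares are not at equal depth. The neutrophil share, too, was highest in neg and lowest in the library labelled CD8 KO. Unthinned, the monocyte share of hom at 33 weeks was about that of its endothelial cells. The monocyte share of the library labelled CD8 KO was lower than that of its endothelial cells. Thinned, endothelial cells were at 1.62%, 0.857%, 1.37% and 1.83%, under the monocytes of the 3 CD8 WT libraries. Endothelial UMIs were of Ace, which these cells make, so their share is no measure of free RNA. Of Treml4 they had 0 UMIs in 3 libraries and 2 in hom at 33 weeks. Treml4 alone was in 18, 5, 11 and 3 monocytes.

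Genes that played no part in the split set these cells apart. The 3 CD8 WT libraries held at least 10 positive cells each. Among 7329 genes with at least 50 UMIs, 2.21% (162 genes) were at least 2-fold higher in positive cells in all 3 libraries, and 6.58% (482 genes) were at least 2-fold lower (1.72% and 4.3% with all cells by the rule). In the non-classical list 11 of 13 measured genes were higher and none lower. Nr4a1, the gene of the transcription factor that non-classical monocytes need, is on the list but was not among the 11. Adgre4, an adhesion receptor of this subset, was at 172, 200 and 238 CPM in positive cells and at 7.10, 14.1 and 11.6 CPM in the rest. Itgal, the integrin chain of LFA-1 used in patrolling, was at 501, 351 and 662 against 67.0, 51.9 and 69.6 CPM. Positive cells were higher for both genes in every one of the 3 libraries. Gngt2, a G protein subunit, was at 939, 634 and 1018 against 103, 109 and 75.4 CPM. Fcgr4, the activating IgG receptor of this subset, was at 211, 100 and 187 against 24.4, 12.98 and 6.76 CPM. The invariant chain gene Cd74 was at 8112 against 1830 CPM in neg. Higher in all 3 were 4 of 7 MHC class II genes (H2-Ab1, H2-Aa, H2-Eb1, Cd74) and 3 of 14 class I genes (H2-K1, H2-Q7, H2-Q6). Erythroid genes summed to 72215 CPM in positive cells of neg and 7395 CPM in the rest. They were at 250 and 181 CPM in hom at 30 weeks and at 3683 and 4733 CPM in hom at 33 weeks. The CPM of positive cells in neg are thus scaled to a sum with many erythroid UMIs.

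Precursor and division genes were the lowest. Of 12 measured marrow precursor genes 9 were lower in positive cells, and of 14 division genes 13 were. Elane had 0 UMIs in positive cells of each CD8 WT library, against 1603, 1616 and 1410 UMIs in the rest. Mpo had 0 as well, against 677, 612 and 564, and Mki67 had 0, 1 and 1 against 172, 168 and 236. No cell without the endothelial mark carried both granule genes at the limit and Treml4 or Ace. Of 18 genes of the classical list only Ly6c2 and F13a1, a coagulation factor subunit, were lower in all 3. Ly6c2 was at 939, 351 and 696 CPM in positive cells. Treml4 and Ly6c2 are both genes of the rule, and a Treml4 positive cell needs fewer of the others to enter, so lower Ly6c2 is in part fixed by it. Because the positive cells were chosen on 2 genes of the same cells, and the rest holds precursors, these values describe the split. By the stricter requirement of 20 cells in a library only neg could be used. There, with all cells, 743 genes (10.1%) were higher and 1216 (16.6%) lower, led by Nnat with 147 UMIs in positive cells and 4 in the rest, of which 146 came from 1 cell.

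**Figure D3:**
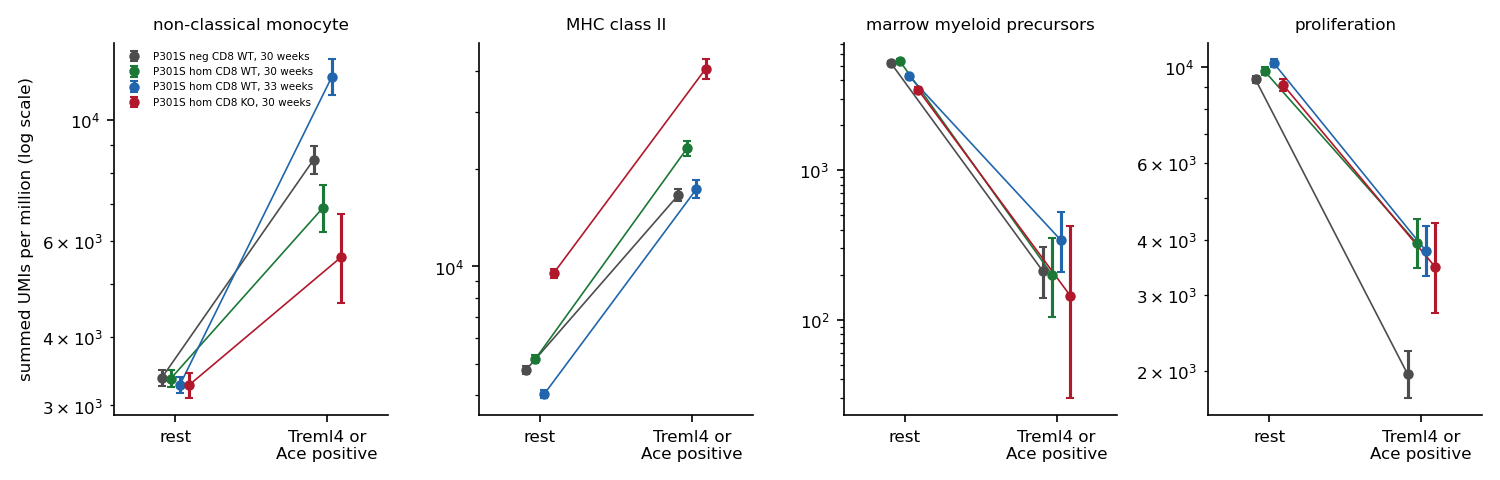
Summed CPM of 4 gene lists on log axes with 95% counting intervals, in Treml4 or Ace positive monocytes and in the rest, with a line for each library (no endothelial-marked cells). Non-classical and MHC class II genes are higher in positive cells of all 4 libraries, and precursor and division genes are lower. The non-classical sum includes Treml4 and Ace, so it is in part fixed by the split. The library labelled CD8 KO has 3 positive cells, of which 1 has at least 1% of its UMIs in class II genes.

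Between libraries, a gene was called higher or lower at a 2-fold difference in CPM among genes whose UMIs in the pair summed to 50 or more. The classical list had 0 of 18 members called in any of the 3 comparisons. Without the endothelial-marked cells 0.343% to 1.1% of all genes were called in each direction, so this count does not set the list apart. Its members Ly6c2, Ccr2, Ms4a4c, Plac8 and Lyz2 are also genes of the rule, and their levels are in part set by the choice of cells. Over all cells by the rule, hom over neg at 30 weeks had 0.517% (30 of 5800 genes) called higher and 2.4% (139) lower. Without the endothelial-marked cells, 0.857% (42 of 4898) were higher and 0.898% (44) lower. The excess of lower genes thus went with those cells. Examples of genes lower over all cells are Tagln, Acta2 and Myl9 of contractile vessel cells, at 712, 957 and 520 UMIs in all neg members. These genes are not part of the endothelial mark, and how many of their UMIs lay in the marked cells is not given here. Single cells carried others. Prss34 and Mcpt8, basophil proteases, had 867 and 221 UMIs in neg, 867 and 219 of them in 1 cell. Hbb-bs (haemoglobin) had 9170 UMIs in the neg cells without the mark, 5069 of them in 1 cell.

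**Figure D4:**
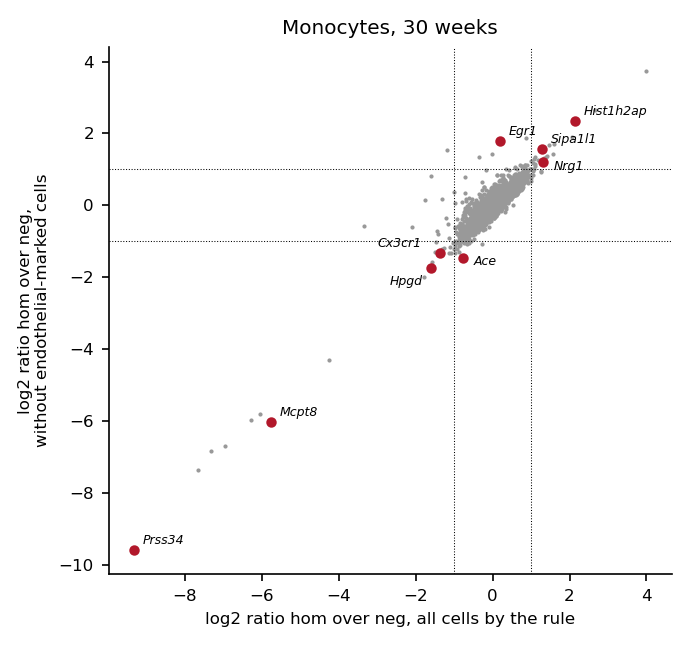
Log2 ratio of hom over neg at 30 weeks for each gene measured in both sets, with all cells by the rule on the x axis and without endothelial-marked cells on the y axis; dotted lines mark 2-fold and named genes are red. Most genes lie between the lines, and Prss34 and Mcpt8 are far out in both because of 1 neg cell.

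Among genes spread over many cells, the non-classical list had 3 of 14 members called lower in hom at 30 weeks and none higher, with a list median of -0.45 on the log2 scale beside 0.01 for all genes measured. Cx3cr1, the fractalkine receptor, was at 94.3, 37.6, 53.9 and 55.1 CPM, and hom at 30 weeks was 0.399 times neg (0.266 to 0.585). Ace was at 39.5, 14.2, 27.4 and 9.18 CPM and Bcl2a1b at 57.5, 27.4, 20.1 and 34.4 CPM. Fcgr4, which is not of this list and was named after its values were seen, was at 45.8, 18.3, 16.5 and 13.8 CPM. Neg was thus highest for all 4 genes, which were not picked at random. Ace also defines the positive cells, so its level in part restates their share. Adgre4 of the list was not called lower, with 22 UMIs in positive cells and 7 in the rest of neg, and 12 and 13 in hom at 30 weeks. With the endothelial-marked cells included, Cx3cr1 alone of the list was called. The share of Treml4 or Ace positive cells was also highest in neg, but among the hom libraries Cx3cr1 did not follow that share. Without the positive cells, Cx3cr1 was the 1 member of 12 called lower (0.454% of genes were). It was at 29.2 CPM in hom at 30 weeks and 68.0 CPM in neg. The rest still held Adgre4 UMIs, so cells of this subset without a UMI of Treml4 or Ace can be among it. Of all members by the rule, 6, 1, 2 and 0 had C1q genes at 0.2% to 0.3% of their UMIs, near the macrophage limit. Whether such cells carry the Cx3cr1 gap was not tested. In cells with none of the marks (0.862% called lower) Cx3cr1 was at 44.7 CPM in hom at 30 weeks and 129 CPM in neg, a log2 ratio of -1.52. In female cells, the sex both libraries hold, it was at 33.6 CPM in hom at 30 weeks and 56.9 CPM in neg, which is under 2-fold. Egr1, an immediate early gene, was at 27.0, 92.5, 71.3 and 34.4 CPM in 17, 22, 28 and 9 cells. With the endothelial-marked cells it was at 415 CPM in hom at 30 weeks and 363 CPM in neg, so that its call rests on their removal. Nrg1, a growth factor of the EGF family, was at 63.8, 147, 94.2 and 59.7 CPM, 2.31 times neg in hom at 30 weeks (1.73 to 3.11) and seen in 34 and 46 cells. Hpgd, the prostaglandin-degrading dehydrogenase, was at 78.1, 23.4, 62.2 and 98.7 CPM, lowest in hom at 30 weeks, which makes it lower over neg and higher in both other comparisons. Comparisons share the 30-week hom library, and a value particular to it enters all 3.

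Of 13 measured type I interferon genes Rsad2 was lower in hom at 30 weeks than in neg, at 14 against 37 UMIs, and none was higher. Of 13 measured chemokines and cytokines Ccl5 was higher and Il6 lower. Over all genes measured 0.857% were higher and 0.898% lower, and these calls are of single members, not of the lists. Isg15 was at 108, 98.5, 99.6 and 66.6 CPM and Ifitm3 at 2964, 3307, 3104 and 3160 CPM. Il1b (interleukin 1 beta) was at 1804, 1559, 1629 and 2336 CPM. Ccl5, a T cell attractant, was at 4.49, 59.9, 3.66 and 55.1 CPM, from 1, 3, 2 and 1 cells.

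Hom at 33 weeks set against hom at 30 weeks had 0.631% (34 of 5392) of genes called higher and 1.19% (64) lower over all cells. Without endothelial-marked cells these were 0.746% (37 of 4961) and 0.343% (17), so the balance of higher and lower turned. Among the higher genes were the chemokines Ccl3 and Ccl4, of 14 measured chemokines and cytokines, of which Ccl5 was lower. Ccl4 had 143, 157, 651 and 70 UMIs, or 128, 160, 595 and 161 CPM, and was 3.73 times higher at 33 weeks than at 30 (3.13 to 4.47). Ccl3, its neighbour on chromosome 11, was at 75.5, 69.1, 169 and 115 CPM, 2.45 times higher (1.84 to 3.28). Ccl4 came from 57 of 154 cells at 33 weeks, with 117 of the 651 UMIs in 1 cell, and from 51 of 113 at 30 weeks. Ccl4 was at 509 CPM (461 to 562) in female and 707 CPM (585 to 848) in male cells at 33 weeks, against 113 to 163 CPM in the cells of either sex in the other libraries. The 33-week level thus stood above the others in the cells of both its mice. In female cells alone Ccl4 was called higher at 33 weeks and Ccl3 was not. Irf8, a transcription factor of the monocyte and dendritic lineage, was at 199, 180, 317 and 227 CPM, below the 2-fold limit. Siglech and Klk1 were also higher at 33 weeks, with 54 and 49 UMIs in 7 and 5 cells, beside 6 plasmacytoid-marked cells there and 2 at 30 weeks.

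Set against hom CD8 WT of the same age, the library labelled CD8 KO had 0.744% (31 of 4166) of genes called higher and 1.8% (75) lower over all cells, and 0.785% (30 of 3823) and 1.1% (42) without endothelial-marked cells. Of 7 measured MHC class II genes, which present peptides to CD4 T cells, H2-Ab1 was called higher and none lower, with a list median of 0.94 on the log2 scale. H2-Ab1 was at 525, 448, 350 and 957 CPM, 2.14 times higher in the library labelled CD8 KO than in CD8 WT (1.86 to 2.45). H2-Aa was at 951, 960.0, 703 and 1799 CPM and H2-Eb1 at 529, 503, 374 and 968 CPM, so the library labelled CD8 KO was highest for all 3. Cxcl10, an interferon-induced chemokine, had 141, 107, 187 and 7 UMIs in 15, 17, 15 and 5 cells. Ly6c2 was 0.718 times its CD8 WT level (0.655 to 0.787) and Plac8 0.734 times. Both are genes of the rule, so their levels are in part set by the choice of cells. Of 7 measured precursor genes Prtn3 and Igfbp4 were called lower and none higher. Apod, Dcn and Itih5, genes of fibroblast-like cells, were among the higher genes, with 445 of 447, 105 of 105 and 62 of 62 UMIs from single cells.

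MHC class II transcripts came from few cells. H2-Aa, H2-Ab1, H2-Eb1 and Cd74 made up at least 1% of UMIs in 18 of 129, 11 of 113, 15 of 154 and 10 of 59 cells. As shares these were 14.0% (8.48 to 21.2), 9.73% (4.96 to 16.8), 9.74% (5.55 to 15.6) and 17.0% (8.44 to 29.0), with intervals that overlap. The median cell held 0.0126%, 0.0114%, 0% and 0.0131%. Of the 10 high cells in the library labelled CD8 KO, all 10 had Ccr2 and Csf1r UMIs, 4 had Ly6c2 and 4 had Cd209a, a gene of monocyte-derived dendritic cells. Among cells with none of the marks the high cells were 6 of 66, 1 of 58, 2 of 70 and 6 of 34. The last of these is 17.6% (6.76 to 34.5) against 1.72% (0.0436 to 9.24) in CD8 WT at 30 weeks, and these intervals overlap. The gap depends on the marks. With only endothelial-marked and Treml4 or Ace positive cells left out, high cells were 9 of 56 (16.1%) and 8 of 101 (7.92%). Of these, 3 of 9 and 7 of 8 had Cd209a, a gene of the dendritic mark. In cells with none of the marks, 5 of 7 class II genes were called higher (0.71% of genes were). Their median log2 ratio was 2.08, from 34 and 58 cells.

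**Figure D5:**
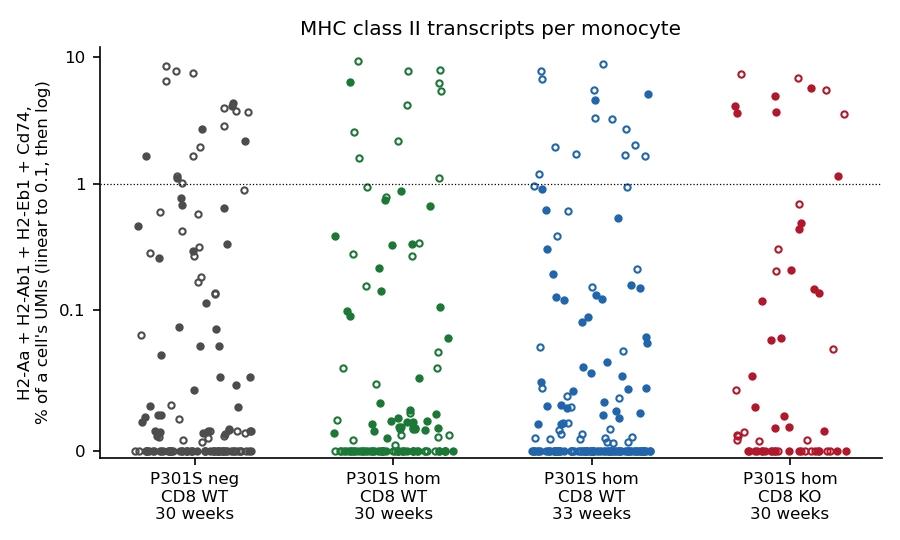
Share of each monocyte's UMIs in H2-Aa, H2-Ab1, H2-Eb1 and Cd74, in percent, linear to 0.1 and log above; each point is 1 cell, filled where it has none of the marks, and the dotted line is at 1%. Most cells lie near 0 in every library, and 10 of 59 in the library labelled CD8 KO lie at or above the line.

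The sexes give the only view of single mice. Monocytes with Xist and no Y-linked UMI, or the reverse, numbered 36 female and 57 male in neg, 97 and 0 in hom at 30 weeks, 91 and 24 in hom at 33 weeks, and 0 and 31 in the library labelled CD8 KO. In neg and in hom at 33 weeks each sex is therefore 1 of the 2 pooled mice, and sex and mouse cannot be told apart. The CD8 comparison sets male cells against female cells, so sex and label cannot be told apart in it. For precursor and class II genes, mice of 1 group differed by as much as the groups. In neg, Mpo was at 65.9 CPM (41.3 to 99.8) in female and 832 CPM (759 to 909) in male cells, while the granule-marked share was 6 of 36 and 11 of 57. In hom at 33 weeks it went the other way, with Mpo at 683 CPM in female and 109 CPM in male cells. Female cells alone thus had Mpo, Elane, Prtn3, Ctsg, Ms4a3 and Igfbp4, 6 of 7 measured precursor genes, called higher in hom over neg at 30 weeks, where the background was 2.73%. With both sexes none of them was called. H2-Ab1 was at 833 CPM (738 to 937) in female and 163 CPM (132 to 199) in male cells of neg. These UMIs came from 7 female and 11 male cells, the cells with at least 1% of UMIs in class II genes were 4 of 36 and 6 of 57, and dendritic-marked cells were 4 and 0, so the gap rests on a few cells. In hom at 33 weeks it was at 262 and 562 CPM, and at 1059 CPM in male cells of the library labelled CD8 KO, above the 453 CPM of female cells in hom at 30 weeks. The ratio of H2-Ab1 between the CD8 groups was smaller than that between the neg mice. Among male cells, the library labelled CD8 KO (31 cells) over hom CD8 WT at 33 weeks (24 cells) had 1.48% (20 of 1354) of genes higher and 1.4% (19) lower, and H2-Eb1 and H2-DMb1 of 7 class II genes were among the higher. Cxcl10 was at 137 CPM in female and 12.1 CPM in male cells of hom at 33 weeks and at 19.0 CPM in those labelled CD8 KO, all male, while male cells of neg were at 112 CPM.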

How the data were processed

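Droplet 3′ single-cell libraries (10x Chromium) of dissociated, myelin-depleted spinal cord were deposited as UMI counts per gene and cell, made with Cell Ranger 6.0.1 per the file headers on mm10 per the submitters' processing notes. The deposited counts cover 32285 genes. Each library pools 2 mice, so n is 1 per group. From the counts, kept cells and monocytes were chosen by the rule in the report, in Python 3.11.15 with scipy 1.17.1 and scanpy 1.11.5. UMIs were summed per library and set and given as CPM with exact Poisson intervals, ratios with exact conditional-binomial intervals, and shares with Clopper-Pearson intervals, all at 95% and for counting error only. Symbols were matched to GENCODE M21 for coordinates.

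Genes called between libraries were at least 2-fold apart with at least 50 UMIs. Genes named were the 8 highest and 8 lowest ratios with 10 CPM added, the 12 highest and 12 lowest for Treml4 or Ace, up to 4 members with most UMIs of each of 29 lists, and the rule genes. Outside this rule, after their values were seen, Adgre4, Bcl2a1b, Ccl5, Cd8a, Fcgr4, Igfbp4, Il6, Isg15, Itgal, Ly6c1, Rsad2 and Spi1 were named. The members and lists were chosen with earlier results of these data known, and the marks after these values were seen. Ratios and calls were tested on simulated sums with counting error only. The simulation held no variation between cells, so it does not cover genes whose UMIs lie in 1 cell. Doublets were called with scrublet (0.870% to 1.71% of kept cells) and kept, leaving them out being an alternative. A gene among the highest ratios is not reported here.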

Additional observations from a re-analysis of the deposited data

How the results depend on the processing

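Each group is 1 library, so no call has a replicate check. No paired analysis was possible because each group is 1 library and no test was made. Of 79 alternative values for shares and counts, 51 lay near the reported ones. The monocyte share of neg was 2.25% with at least 4 markers and 2.25% without endothelial-marked cells, and 2.49% (neg) and 2.87% (hom at 33 weeks) when the rule was applied after thinning to 1000 UMIs. Treml4 or Ace positive shares of all members were 6.90%, 5.98% and 5.06% after thinning in the 3 CD8 WT libraries, and 11.3% (neg) and 5.13% (hom at 30 weeks) for Treml4 alone.

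Counts of genes 2-fold apart depended on the settings. For hom over neg (169 as reported) they were 1112 and 72 at minimums of 10 and 100 UMIs, 443 from mean per-cell shares, 95 of 2238 measured (4.245%, beside 2.914% as reported) without cells with precursor or division UMIs (Mpo, Elane, Prtn3, Ctsg, Mki67, Top2a), 102 in female cells, 86 without endothelial-marked cells and 284 without each gene's top cell. In the last, 154 of the 169 were called the same way. For CD8 KO over WT (106) they were 1101 and 40 at those minimums, 51 of 1493 (3.416%, beside 2.544%) without precursor or division UMIs and 53 in male cells against hom at 33 weeks. For 33 over 30 weeks (98) they were 938 and 37 at those minimums, 150 from per-cell shares and 54 without endothelial-marked cells. For Treml4 or Ace positive cells (1959) they were 382 of 1603 after thinning (23.83%, beside 26.73% of 7329), 1115 at 100 UMIs, 441 with 3 libraries and 644 in these without endothelial-marked cells. The share of calls that were higher in hom over neg was 17.8%, against 70.5% without precursor or division UMIs, 66.7% in female cells and 48.8% without endothelial-marked cells. For 33 over 30 weeks it was 34.7%, against 86.2% without Treml4 or Ace positive cells, 56.7% from per-cell shares and 68.5% without endothelial-marked cells. For CD8 KO over WT it was 29.2%, against 43.4% from per-cell shares, 49.3% without Treml4 or Ace positive cells, 41.7% without endothelial-marked cells, 16.8% without top cells and 60.4% in male cells. Under TMM scaling the counts were 168, 108 and 97, and those of higher or lower genes alone moved by up to 3.

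Directions of named genes turned in 38 gene values, while 317 stayed close and 95 moved without turning, given as log2 ratios with 10 CPM added. In hom over neg they turned without endothelial-marked cells for Nnat (0.74), Clu (0.24), Mt3 (1.41) and Tpm2 (0.26), in female cells for Prss34 (0.14), Mcpt8 (0.38), Nnat (0.52) and Mt3 (1.08), and from per-cell shares for Rasl11a (-0.16). Without Treml4 or Ace positive cells they turned for Rasl11a (-1.56), Nnat (0.71) and Mt3 (1.08). Without precursor or division UMIs they turned for Nnat (1.74), Clu (1.47), Mt3 (2.56), Tpm2 (2.21) and Tagln (4.35), and without the top cell for Rasl11a (-0.019), Mcpt8 (0.060) and Mt3 (0.16). In CD8 KO over WT they turned in male cells for Egr1 (0.76), Cxcl10 (0.73), Adamts1 (1.67) and Ifitm1 (0.41), without Treml4 or Ace positive cells for Adamts1 (0.52), without the top cell for Itih5 (-0.85) and Ptn (-0.57), and without precursor or division UMIs for Apod (-3.48), Dcn (-1.37), Itih5 (-2.12) and Ptn (-0.95). In 33 over 30 weeks they turned without Treml4 or Ace positive cells for Acta2 (0.36), Adamts1 (0.54) and Myl9 (1.37), without endothelial-marked cells for Acta2 (0.31), Adamts1 (0.25) and Myl9 (0.54), and without the top cell for Clu (-0.78). The causes were not tested. Removal of endothelial-marked cells, of top cells, the male comparison and the 3-library count were chosen after seeing the data. CD8 KO over WT was not run within 1 sex, since the libraries share none.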
